A study of Homo sapiens with 6 samples.

Results

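The genes examined were 10 that encode the small RNA silencing machinery, namely DROSHA, DGCR8, XPO5, DICER1, TARBP2, PRKRA, AGO1, AGO2, TNRC6A and TNRC6B. They were picked by gene symbol for their known role, with earlier results of these data known. All 10 were found among the 24462 symbols counted in the series. RNA-seq covered 6 libraries of PC3, an established line of human prostate cancer cells from a bone metastasis. In 3 of them the cells had received a non-targeting siRNA (si-Control) and in 3 an siRNA against CITED2 (si-CITED2), each at 80 nM for 72 h. CITED2 is a transcriptional co-regulator that binds p300 and CBP. Both groups therefore carried a synthetic siRNA, and no untransfected library was analysed here, so the comparison is between siRNAs. The labels number the libraries of a group as replicates, and the study describes the transfections behind them as independent repeats.

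In animal cells a primary microRNA transcript is cut in the nucleus by the Microprocessor, the hairpin is exported by exportin-5, and Dicer trims it in the cytoplasm to a short duplex. A single strand is loaded into an Argonaute protein with the help of the HSP90 and HSP70 chaperones. The loaded Argonaute binds a GW182 scaffold, which recruits the enzymes that shorten the poly(A) tail and remove the cap of the target mRNA. A transfected siRNA enters at the Dicer and Argonaute end of this route and needs neither Drosha nor exportin-5.

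The targeted mRNA was examined first. CITED2 had 858.6, 892 and 773 normalized counts in the 3 si-Control libraries and 1084.3, 921.1 and 983.9 in the 3 libraries labelled si-CITED2 (normalized counts are reads scaled to a common library size). Every si-CITED2 library was above every si-Control library, so the CITED2 transcript goes against the knockdown that the label names. The study checked its knockdown in PC3 by immunoblot, that is for the protein, which read counts do not measure. The log2 fold change was 0.24 ± 0.07 (SE, n = 3 per group), and the adjusted p was 0.03626 (edgeR's quasi-likelihood test, p-values adjusted by Benjamini-Hochberg over all tested genes, as for every gene here). That call was lost without TMM scaling and in 4 of the 6 fits that left out 1 library (si-Control replicate 1 or 3, si-CITED2 replicate 1 or 3), and over the 6 fits the values lay between 0.17 and 0.29. All directions are those of the libraries labelled si-CITED2 against those labelled si-Control.

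The total count per library was between 19508925 and 28936374, so that 3 counts, the lowest number taken as detectable, stood for 0.103 to 0.155 CPM, the counts scaled to library size. The epithelial genes KRT8, KRT18, KRT19, EPCAM and CDH1 were all expressed. KLK2 was at 0 in every library and KLK3 had at most 2 counts, the low levels of luminal prostate genes for which PC3 is known. Of the leukocyte markers, PTPRC had at most 2 counts, CD3E at most 1 and ITGAM at most 19, while CD68, a lysosomal protein that is not restricted to leukocytes, had 2622 to 3947.

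Expression of the 10 silencing genes differed little between the groups. The raw counts ran from 371 (PRKRA) to 7871 (DROSHA), and all 10 passed the filter on low counts. XPO5 fell by 11.4% and TNRC6A fell by 13.2%, and the other 8 did not pass the test. Thus 2 of 10 fell where 8.09% of the 16314 tested genes fell. No member rose, where 9.36% of all tested genes rose. At an unadjusted p under 0.05, 1 member (AGO1) was higher and DESeq2 also called 0 higher. In either direction 3 of the 10 members had such a p in edgeR, as had 29% of all tested genes. In 2 of the 10 genes all si-CITED2 libraries lay below all si-Control libraries, as in 16.1% of tested genes, and in 1 they lay above, as in 16.4%. The median log2 fold change was -0.05 over the members and -0.00137 over all tested genes. The median absolute log2 fold change was 0.07 over the members and 0.14 over all tested genes. All 10 members had an absolute log2 fold change under 0.25, as had 72.8% of all tested genes. The tested genes include many with fewer counts and less precise fold changes, and were not matched to the members in count level. The part of count level in these comparisons was not tested. Since the RNA came from bulk cultures, fewer cells expressing a gene and less RNA per cell cannot be told apart.

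**Figure D1:**
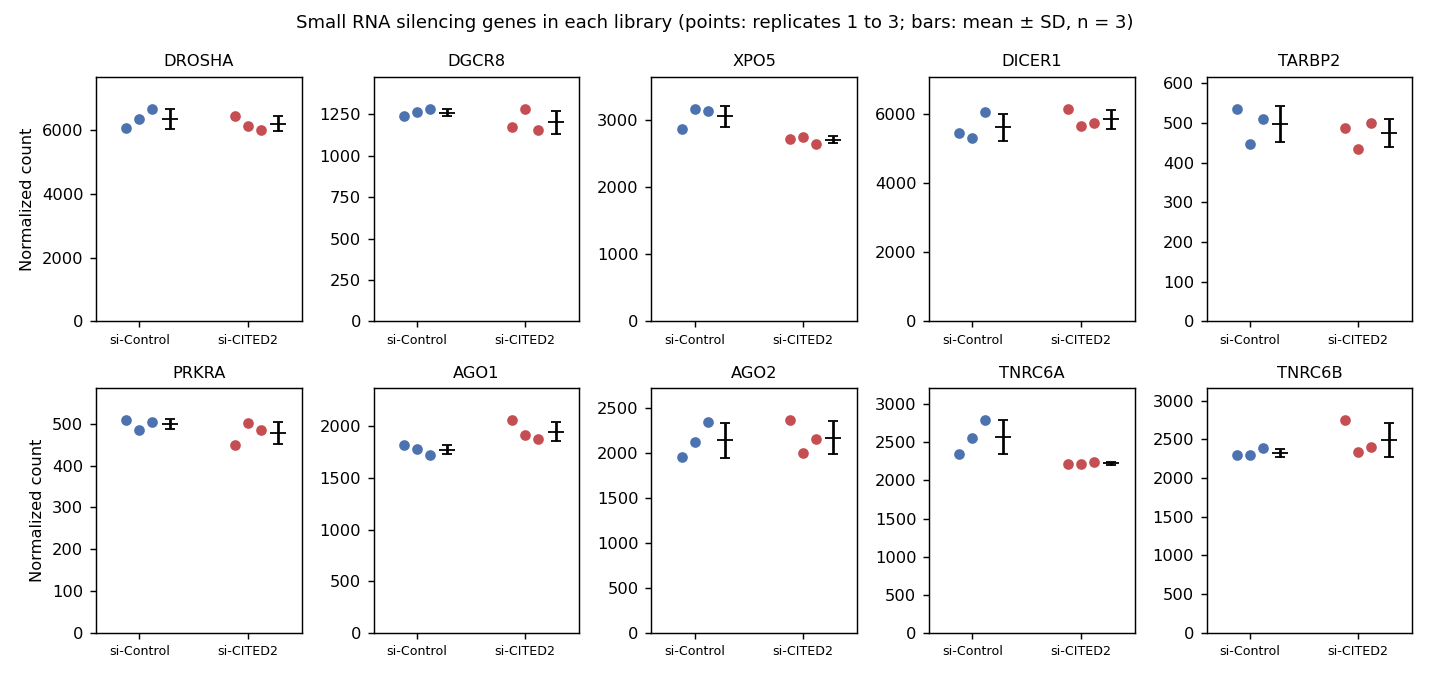
Normalized counts (y axis, linear from 0, a separate scale per gene) of the 10 silencing genes in the 3 si-Control (blue) and 3 si-CITED2 (red) libraries. Points are replicates 1 to 3 from left to right and the bars beside them give mean ± SD. In XPO5 and TNRC6A the si-CITED2 points lie below all si-Control points, in AGO1 they lie above, and in the other 7 genes the groups overlap.

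The Microprocessor consists of the nuclease Drosha and its RNA-binding partner DGCR8. DROSHA had 6038.3, 6336.9 and 6647.9 normalized counts under si-Control against 6444.1, 6118.9 and 5994 under si-CITED2. The libraries of both groups were interleaved, and the difference of -2.43% had a 95% interval of -9.49% to 5.17% (log2 fold change -0.04 ± 0.05 SE, adjusted p = 0.7102, edgeR). DGCR8 had 1241.6, 1262.4 and 1281.3 normalized counts under si-Control against 1171.8, 1283.2 and 1154.8 under si-CITED2. Of the si-CITED2 libraries, 2 were below the si-Control range and 1 was above it, and the difference of -4.52% had an interval of -12.6% to 4.28% (adjusted p = 0.5205, edgeR). The DGCR8 transcript is itself a hairpin carrier. RefSeq places mature miR-1306 within a coding exon on the plus strand of chromosome 22 (GRCh38.p14), its 5p arm at chr22:20086072-20086093 and its 3p arm at chr22:20086112-20086129. The capitals mark the seed, bases 2 to 8, which pairs with target mRNAs.
hsa-miR-1306-5p: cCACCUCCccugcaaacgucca
hsa-miR-1306-3p: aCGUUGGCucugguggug

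XPO5 encodes exportin-5, the Ran-dependent carrier that moves the hairpin precursors out of the nucleus. It had 2866.3, 3161.6 and 3127.5 normalized counts under si-Control against 2718.8, 2742.2 and 2645.9 under si-CITED2. The means were 3051.8 ± 161.5 and 2702.3 ± 50.2 (SD, n = 3), and all si-CITED2 libraries lay below all si-Control libraries. The log2 fold change was -0.18 ± 0.05 (SE), with a 95% interval of -18% to -4.3% in percent, and passed the test (adjusted p = 0.02975, edgeR). An exact permutation test of the same 6 values, two-sided, gave p = 0.1, the smallest that 3 against 3 allows. The call held without si-Control replicate 1 and was lost when any of the other 5 libraries was left out, with log2 fold changes of -0.22 to -0.15 over all alternatives and adjusted p up to 0.141. In GENCODE 29, 4.08% of the exon bases of XPO5 are shared with POLR1C on the opposite strand, and whether counting used strand is not given in the sources used here.

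DICER1 encodes the cytoplasmic nuclease that cuts the exported hairpin. It had 5448.2, 5317.6 and 6070.2 normalized counts under si-Control against 6146.6, 5644 and 5744.2 under si-CITED2. The highest si-Control library was above 2 of the si-CITED2 libraries, and the difference of 4.19% had an interval of -4.12% to 13.2% (adjusted p = 0.5474, edgeR). The RefSeq annotation places miR-3173 in an intron of DICER1, with its 5p arm at chr14:95137961-95137982 on the minus strand (seed in capitals).
hsa-miR-3173-5p: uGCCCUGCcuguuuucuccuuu

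TARBP2 and PRKRA encode TRBP and PACT, the double-stranded RNA-binding partners of Dicer. TARBP2 had 535, 446 and 509.5 normalized counts under si-Control against 486.9, 433.8 and 500.7 under si-CITED2. PRKRA had 508.4, 485.5 and 504.8 under si-Control against 450.5, 502.6 and 484.3 under si-CITED2. Both pairs of groups overlapped, and both genes had a similar number of reads. The difference was -4.63% for TARBP2 (interval -16.5% to 8.88%, adjusted p = 0.6821, edgeR). It was -3.9% for PRKRA (interval -14.3% to 7.79%, adjusted p = 0.6926, edgeR). These intervals, among the widest of the 10, belong to the members with the fewest counts, 371 to 603 reads per library.

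The Argonautes hold the guide strand, and AGO2 is the one known for slicing a fully matched target, the step on which an siRNA depends. AGO2 had 1956.2, 2113.4 and 2335.6 normalized counts under si-Control against 2358.1, 1990.3 and 2148.5 under si-CITED2. The ranges almost coincided, and the difference of 1.47% had an interval of -8.58% to 12.6% (adjusted p = 0.8839, edgeR). Its sign was negative without si-Control replicate 1 and without si-CITED2 replicate 1. AGO1, which silences mostly without slicing, had 1815.8, 1786.5 and 1724.9 normalized counts under si-Control against 2059.4, 1915.7 and 1876.8 under si-CITED2. Its groups did not overlap, yet the log2 fold change of 0.13 ± 0.06 (SE) did not pass the test (adjusted p = 0.1134, edgeR, and between 0.09668 and 0.3203 over the alternatives). In percent the AGO1 difference was 9.74%, with an interval of 1.18% to 19%.

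The remaining Argonautes, AGO3 and AGO4, were also present. AGO3 had 458.6, 493.5 and 487.1 normalized counts under si-Control against 692.1, 546.5 and 518.2 under si-CITED2. All si-CITED2 libraries were above the si-Control range, and the log2 fold change of 0.28 ± 0.10 (SE) narrowly missed the threshold (adjusted p = 0.05759, edgeR). It passed in 2 of 12 alternatives, without si-CITED2 replicate 3 and with no filter on low counts. AGO4 had 459.5, 609.5 and 600.1 normalized counts under si-Control against 629, 661.2 and 582.9 under si-CITED2, with overlapping groups (log2 fold change 0.17, adjusted p = 0.2816, edgeR). With all libraries included, all 4 Argonautes had a positive log2 fold change, as had 8104 of the 16314 tested genes. The sign of AGO2 had the exceptions given above. Of the 4, 0 passed edgeR's test and 0 passed in DESeq2, while at an unadjusted p under 0.05 AGO1 and AGO3 were higher. Of all tested genes, 29% had such a p in either direction.

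The GW182 proteins bridge Argonaute and the deadenylases. TNRC6A had 2344.6, 2561.8 and 2789.8 normalized counts under si-Control against 2212.4, 2214.8 and 2243.8 under si-CITED2. The si-CITED2 libraries were close to each other and below every si-Control library, with means of 2565.4 ± 222.6 and 2223.7 ± 17.5 (SD, n = 3). The log2 fold change was -0.20 ± 0.06 (SE), with an interval of -20.6% to -5.14%, and passed the test (adjusted p = 0.02741, edgeR). The exact permutation test, two-sided, again gave p = 0.1, its minimum. As for XPO5, the call held without si-Control replicate 1 and was lost without any of the other 5 libraries (log2 fold change -0.27 to -0.14 over all alternatives, adjusted p up to 0.1292). TNRC6B had 2299.3, 2292.9 and 2386.2 normalized counts under si-Control against 2745.5, 2331.4 and 2407 under si-CITED2. Replicate 1 of si-CITED2 stood above the rest, the groups overlapped, and the difference of 7.18% had an interval of -2.01% to 17.2% (adjusted p = 0.3095, edgeR). The other paralog, TNRC6C, had 364.4, 379.2 and 382.4 normalized counts under si-Control against 367.9, 408 and 428.4 under si-CITED2 (log2 fold change 0.10, adjusted p = 0.5137, edgeR). In GENCODE 29, 12.9% of its exon bases are shared with TNRC6C-AS1.

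**Figure D2:**
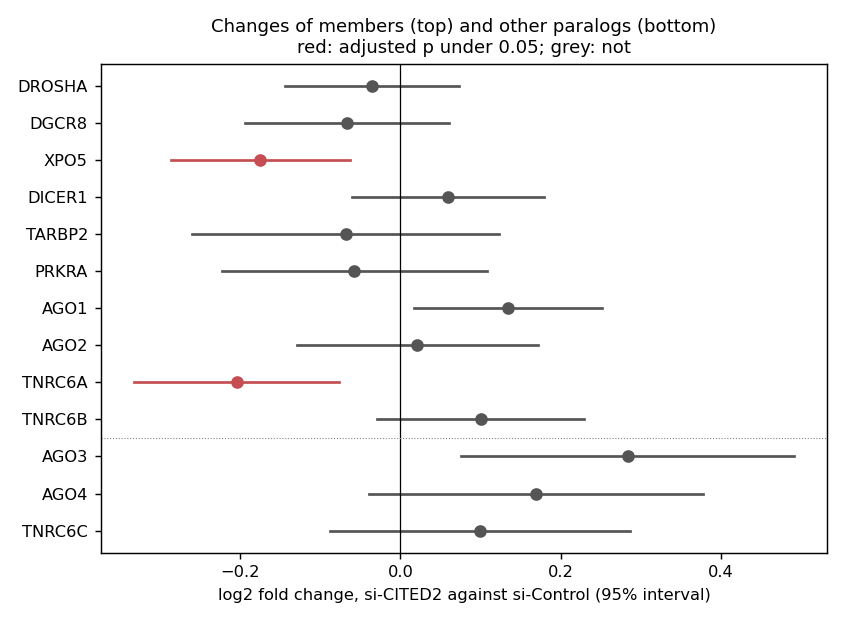
Log2 fold change (x axis) of si-CITED2 against si-Control for the 10 silencing genes and, under the dotted line, the remaining Argonaute and GW182 paralogs. Points are edgeR estimates, lines are 95% intervals, and red marks an adjusted p under 0.05, which XPO5 (-0.18) and TNRC6A (-0.20) reached.

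Because XPO5 and TNRC6A were the members that fell, their promoters are shown as the 250 bases before the RefSeq start in GRCh38.p14, read 5′ to 3′ on the strand of the gene. XPO5 lies on the minus strand (chr6:43576039-43576288) and TNRC6A on the plus strand (chr16:24729401-24729650). Capitals mark matches, on either strand, to the GC box (GGGCGG), the CCAAT box (CCAAT) and an ETS motif (CCGGAAG).
XPO5: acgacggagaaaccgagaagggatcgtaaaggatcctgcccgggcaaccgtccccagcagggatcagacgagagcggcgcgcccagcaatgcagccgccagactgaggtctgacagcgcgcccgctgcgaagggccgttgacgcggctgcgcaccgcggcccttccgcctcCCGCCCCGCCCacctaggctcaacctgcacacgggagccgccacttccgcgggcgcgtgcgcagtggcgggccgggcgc
TNRC6A: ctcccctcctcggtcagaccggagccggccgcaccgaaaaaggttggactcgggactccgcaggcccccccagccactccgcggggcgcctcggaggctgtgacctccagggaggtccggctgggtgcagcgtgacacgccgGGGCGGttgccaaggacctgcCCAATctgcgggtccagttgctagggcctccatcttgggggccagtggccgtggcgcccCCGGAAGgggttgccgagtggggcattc

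XPO5 had 2 GC boxes and none of the other motifs, with a GC content of 72.4%, and TNRC6A had 1 GC box, 1 CCAAT box and 1 ETS motif, with a GC content of 71.6%. A RefSeq promoter was used for 9 of the 10 members. A GC box was present in 9 of these 9, against 42.3% of the 27305 promoters in the table, and a CCAAT box in 8 of 9, against 33.0%. The ETS motif was present in 2 of 9, against 8.82%. The TATA box (TATAAA) and the E-box (CACGTG), present in 11.1% and 6.49% of all promoters, were in 0 of the 9. The 27305 promoters were neither limited to genes expressed in these cells nor matched for GC content. The part of either in these shares was not tested. The matches describe letters in the window and are not binding sites.

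Levels of different genes were compared as RPKM, reads scaled to library size and to each kilobase of transcript, with the longest coding transcript in GENCODE 29 as the length, so that genes with shorter transcripts in these cells would be understated. DROSHA was the highest, at 50.7 ± 2.44 in si-Control and 49.5 ± 1.86 in si-CITED2 (SD, n = 3). XPO5 (24.2 ± 1.28) and DICER1 (23.1 ± 1.65) followed in si-Control and did not differ beyond their spread. In si-CITED2 they stood at 21.4 ± 0.398 and 24 ± 1.09. TNRC6A (12.9 ± 1.12), DGCR8 (11.9 ± 0.187), PRKRA (11.6 ± 0.286) and TARBP2 (11.3 ± 1.04) formed the next tier in si-Control, with neighbours inside each other's spread. AGO2 (6.22 ± 0.555), AGO1 (5.5 ± 0.144) and TNRC6B (5.4 ± 0.121) were the lowest of the 10 on this scale. Among the Argonautes AGO4 (3.32 ± 0.501) and AGO3 (1.03 ± 0.0401) were lower still, as was TNRC6C (1.64 ± 0.0419) among the GW182 genes.

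**Figure D3:**
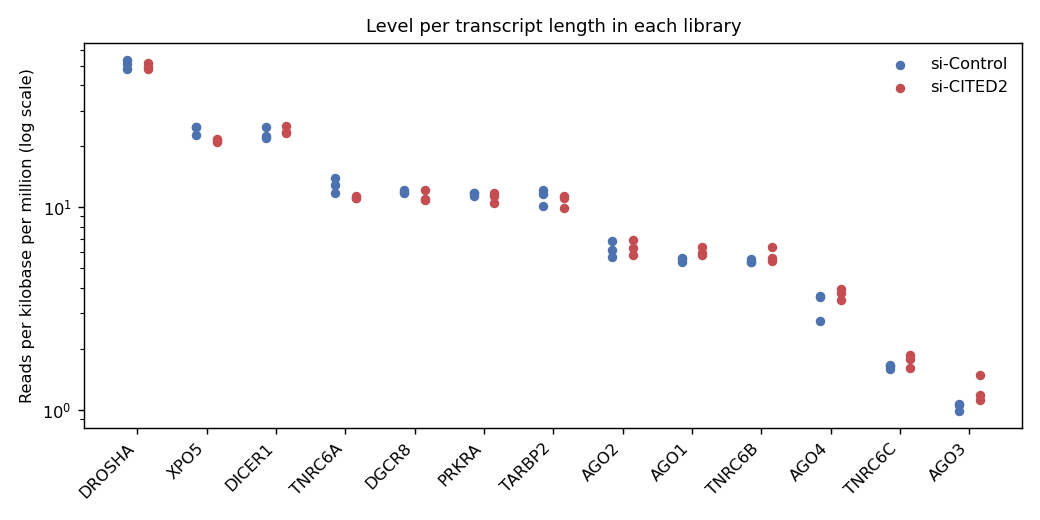
RPKM over the longest coding transcript (y axis, log scale) in each si-Control (blue) and si-CITED2 (red) library. Genes are ordered by their si-Control mean, from DROSHA at 50.7 to AGO3 at 1.03, and this order spans far more than any difference between the groups.

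The members also varied within a group. Of the 10 genes, 6 had their highest si-Control value in replicate 3, the shallowest library of that group, where 34.6% of all tested genes did. In si-CITED2, 5 of 10 had it in replicate 1, again the shallowest, against 36.7% of all tested genes. The part of depth in these values was not tested. For DICER1, the genes with the most similar pattern of log2 CPM over the 6 libraries were ATM (Pearson r = 0.9977) and FAM174B (r = 0.9914). For AGO2 they were FNTB (r = 0.9946) and CLMN (r = 0.987). These are the best of 16314 genes over 6 points that share depth and library, and serve only as a description.

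The wider pathway was covered by lists of 126 further genes, of which 113 had a row and 108 were tested. Of these, 20 fell (18.5%, against 8.09% of all tested genes) and 3 rose (2.78%, against 9.36%), with a median log2 fold change of -0.03. The lists were chosen with earlier results of these data known, so the shares given here and below describe the lists and do not test them. The count of 23 changed genes dropped to 15 without si-Control replicate 2, 13 without si-CITED2 replicate 2 and 14 without si-CITED2 replicate 3. The 4 PIWI Argonautes, which serve the germline, had few or no counts. PIWIL1 had 0 counts in every library, which allows up to 0.103 to 0.155 CPM, and PIWIL2, PIWIL3 and PIWIL4 had at most 22 counts. PIWIL2 (log2 fold change 0.56, adjusted p = 0.3353, edgeR) and PIWIL4 (1.05, adjusted p = 0.1198, edgeR) were tested and did not pass.

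**Figure D4:**
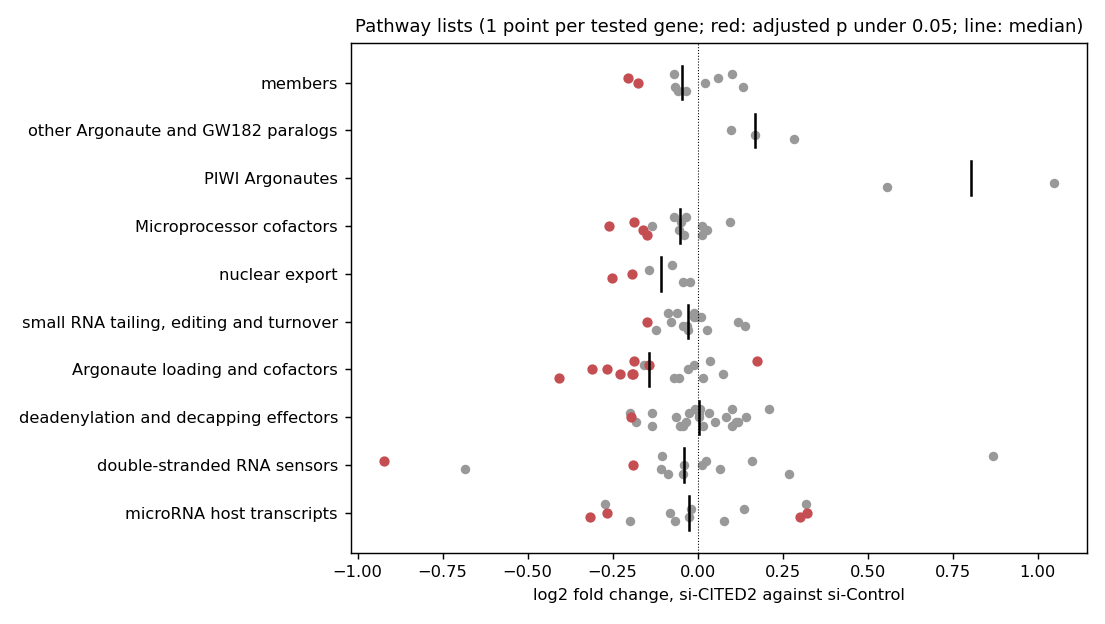
Log2 fold change of si-CITED2 against si-Control (x axis) for each tested gene of the members and of 9 pathway lists (rows). Red points passed an adjusted p of 0.05 and black bars are list medians, of which that of the Argonaute loading list (-0.14) lies lower than that of the members (-0.05).

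Of the 14 Microprocessor cofactors, 4 fell (28.6%, against 8.09% of all tested genes). They included SRRT, which links the cap-binding complex to primary microRNA processing (5335.8 ± 285.1 to 4448 ± 128.9 normalized counts, log2 fold change -0.26 ± 0.05 SE, adjusted p = 0.001713, edgeR), BRD7 and KHSRP. KHSRP, a protein that binds the loops of some precursors, had a log2 fold change of -0.15 (adjusted p = 0.0265, edgeR). BRD7 is better known as a bromodomain subunit of a chromatin remodeller (log2 fold change -0.19, adjusted p = 0.009569, edgeR). It counts among the 4 that fell, though its place on this list is open to question. SRRT passed in all 12 alternatives and BRD7 in 11, failing without si-CITED2 replicate 2. KHSRP passed in 8, failing without replicate 2 or 3 of either group.

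Of the 6 nuclear export genes, 2 fell, where 8.09% of all tested genes fell. All 6 had a negative log2 fold change, as had 8210 of the 16314 tested genes, and their median was -0.11. RCC1, the exchange factor that loads Ran with GTP in the nucleus, went from 3017.5 ± 184.9 to 2535.9 ± 106.1 normalized counts (log2 fold change -0.25 ± 0.06 SE, adjusted p = 0.00477, edgeR). RANGAP1, which triggers GTP hydrolysis by Ran in the cytoplasm, went from 5146.8 ± 193.6 to 4496.5 ± 114.4 (log2 fold change -0.19 ± 0.05 SE, adjusted p = 0.01034, edgeR). Both act on the Ran cycle that exportin-5 shares with other carriers. RCC1 passed in all 12 alternatives and RANGAP1 in 11, failing without si-CITED2 replicate 3.

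The Argonaute loading list held the most changed genes of the 9 lists, with a median log2 fold change of -0.14. Of its 17 tested genes, 8 were lower (47.1%, against 8.09% of all tested genes) and 1 was higher (5.88%, against 9.36%). All tested genes were not matched to the list in count level, and the part of count level in these shares was not tested. HSP90AA1, the inducible cytosolic HSP90, had 122344.5, 118493.9 and 118106 normalized counts under si-Control against 83031.9, 94274.6 and 93267.5 under si-CITED2. Its groups were well apart, with a log2 fold change of -0.41 ± 0.05 (SE, adjusted p = 2.326e-05, edgeR). FKBP4, an HSP90 co-chaperone, had 6365.4, 6152.5 and 6284.3 under si-Control against 5041.7, 4993.4 and 5111 under si-CITED2 (log2 fold change -0.31 ± 0.05 SE, adjusted p = 0.0001139, edgeR). HSPA8, the constitutive HSP70, fell with a log2 fold change of -0.27 ± 0.05 (SE, adjusted p = 0.0005374, edgeR), and HSP90AB1, the constitutive HSP90, with -0.19 ± 0.04 (SE, adjusted p = 0.004029, edgeR). These 4 passed in all 12 alternatives. They fold and activate many client proteins besides Argonautes. The sole rise was DDX6, an RNA helicase of P-bodies named here after its values were seen (log2 fold change 0.17, adjusted p = 0.02543, edgeR), which failed without si-Control replicate 3 and without si-CITED2 replicate 1 or 2. The count of 9 changed genes was 5 without si-Control replicate 3, 4 without si-CITED2 replicate 2 and 5 without si-CITED2 replicate 3.

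Downstream of the GW182 proteins, 1 of 24 deadenylation and decapping genes fell (4.17%, against 8.09% of all tested genes), and the list median was 0.00409. It was EDC4, the scaffold of the decapping complex (1222.2 ± 47.5 to 1067.7 ± 24.3 normalized counts, log2 fold change -0.20 ± 0.06 SE, adjusted p = 0.02913, edgeR). EDC4 passed in 7 of 12 alternatives, and was lost with the replicate number as a block, without si-Control replicate 2 and without each si-CITED2 library. Of 15 tested genes for tailing, editing and turnover of small RNAs, 1 fell (6.67%, against the same 8.09%). This was PNPT1, a mostly mitochondrial exoribonuclease (log2 fold change -0.15, adjusted p = 0.04242, edgeR), which passed in 0 of the 6 fits that left out 1 library and was also lost with a replicate block and with no filter beyond a non-zero count.

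Double-stranded RNA, such as an siRNA, can also be met by innate sensors. Of 14 tested sensors, 2 fell (14.3%, against 8.09% of all tested genes). DHX58, the RIG-I-like receptor LGP2, had 67.5, 81.3 and 88.2 normalized counts under si-Control against 36.4, 47.8 and 39.4 under si-CITED2. The groups were far apart, with a difference of -47.2% (95% interval -60.7% to -29.2%, adjusted p = 0.003679, edgeR), and the call held in all 12 alternatives. OAS3, an oligoadenylate synthetase, went from 1050.9 ± 29.7 to 920 ± 6.7 normalized counts (log2 fold change -0.19 ± 0.06 SE, adjusted p = 0.03392, edgeR) and passed in 5 of 12 alternatives. It was lost with DESeq2, with a replicate block, without si-Control replicate 2 or 3 and without each si-CITED2 library.

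Mature microRNAs were not measured in these libraries, but mRNAs whose genes hold microRNA hairpins were. Of 26 host transcripts listed, 13 had a row and were tested, and the other 13 were not analysed here. Of the 13, 2 fell (15.4%, against 8.09% of all tested genes) and 2 rose (15.4%, against 9.36%). All 4 passed in each of the 12 alternatives. MCM7, a subunit of the replicative helicase, had 6041.9, 5814.4 and 6069 normalized counts under si-Control against 4659.2, 4876.8 and 4864.5 under si-CITED2 (log2 fold change -0.32 ± 0.05 SE, adjusted p = 0.0001425, edgeR). SMC4, a condensin subunit, had 10853.7, 10101.5 and 11883.9 under si-Control against 8958.9, 9234.7 and 9099 under si-CITED2 (log2 fold change -0.27 ± 0.06 SE, adjusted p = 0.002821, edgeR). In both, each si-CITED2 library lay below each si-Control library. CTDSP2, a small phosphatase, had 2077.1, 2014.3 and 2092 under si-Control against 2533, 2552.1 and 2536.3 under si-CITED2 (log2 fold change 0.30 ± 0.05 SE, adjusted p = 0.0003362, edgeR). VMP1, a membrane protein of autophagy, had 2571.2, 2708.3 and 2422.7 under si-Control against 3017.5, 3252.5 and 3364.6 under si-CITED2 (log2 fold change 0.32 ± 0.06 SE, adjusted p = 0.0007184, edgeR). In both, each si-CITED2 library lay above each si-Control library.

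The microRNAs in these 4 hosts, from RefSeq in GRCh38.p14, are shown with the seed in capitals because 2 of the hosts carry families that share one. Intronic sequence of MCM7 on the minus strand holds miR-106b (chr7:100094043-100094063), miR-93 (chr7:100093815-100093837) and miR-25 (chr7:100093571-100093592). Intronic sequence of SMC4 on the plus strand holds miR-15b (chr3:160404607-160404628) and miR-16 (chr3:160404754-160404775). An intron of CTDSP2 on the minus strand holds miR-26a (chr12:57824658-57824679), and an exon of VMP1 on the plus strand holds miR-21 (chr17:59841273-59841294). The seed AAAGUGC is common to miR-106b and miR-93, and AGCAGCA to miR-15b and miR-16, while miR-25, miR-26a and miR-21 each have another. The same mature miR-16 and miR-26a are also encoded elsewhere, in DLEU2 and CTDSPL, so neither host is their sole source. CTDSPL had the opposite sign to CTDSP2 and did not pass (log2 fold change -0.27, adjusted p = 0.07633, edgeR). DLEU2 had the same sign as SMC4 and did not pass either (log2 fold change -0.20, adjusted p = 0.4686, edgeR).
hsa-miR-106b-5p: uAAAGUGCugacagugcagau
hsa-miR-93-5p: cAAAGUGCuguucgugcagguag
hsa-miR-25-3p: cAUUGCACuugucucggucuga
hsa-miR-15b-5p: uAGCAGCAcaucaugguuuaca
hsa-miR-16-5p: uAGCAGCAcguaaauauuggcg
hsa-miR-26a-5p: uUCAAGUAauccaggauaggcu
hsa-miR-21-5p: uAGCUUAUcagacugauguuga

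**Figure D5:**
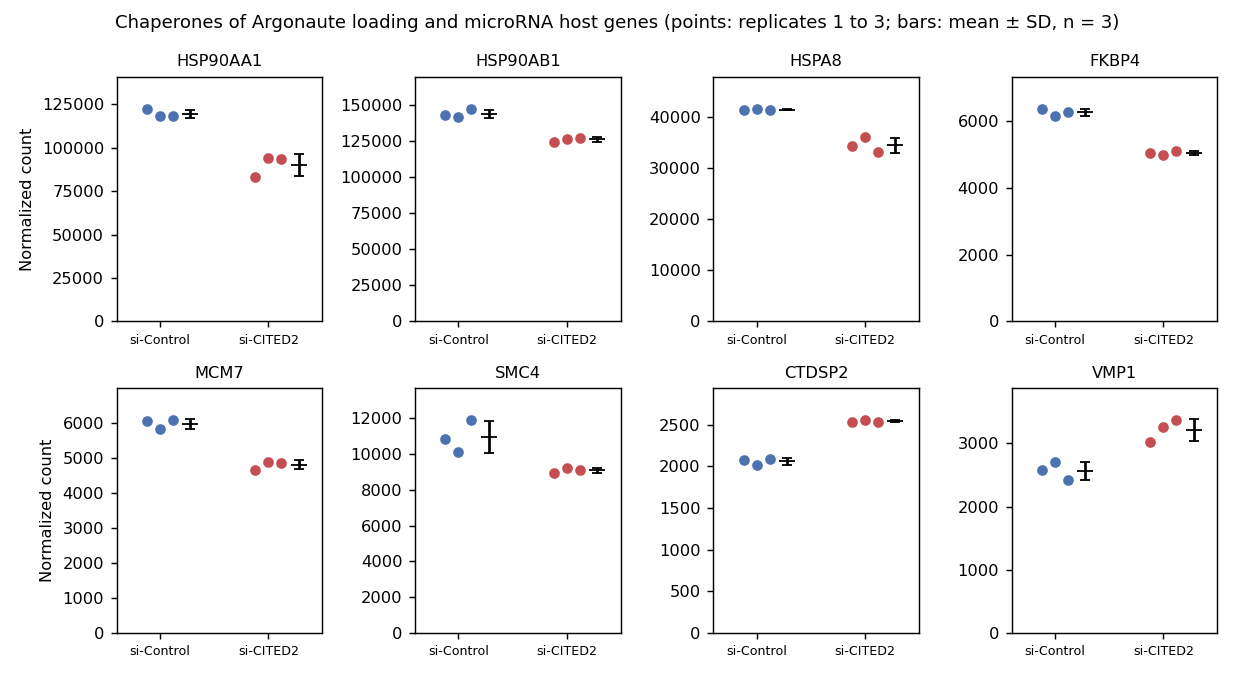
Normalized counts (y axis, linear from 0, a separate scale per gene) of 4 chaperone genes of Argonaute loading (top) and 4 microRNA host genes (bottom) in the 3 si-Control (blue) and 3 si-CITED2 (red) libraries, with mean ± SD. The si-CITED2 points lie below all si-Control points in the 4 chaperones, MCM7 and SMC4, and above them in CTDSP2 and VMP1.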

How the data were processed

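RNA-seq libraries were made from 3 si-Control and 3 si-CITED2 samples of PC3 cells with a SMARTer kit. For each library the authors deposited a file of unnormalized read counts by gene symbol. The submitters' processing notes name hg19, TopHat and edgeR, with no role or version. The counter, annotation and strand setting are not given in the sources used here. Where a symbol had several rows, the one with most counts was kept (1275 rows, 0.0821% of counts, left out). No 2 replicates agreed within counting error (the lowest chi-square over its degrees of freedom was 2.89).

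The counts were fitted with edgeR 4.0.16 under R 4.3.3 (filterByExpr, TMM, glmQLFit and glmQLFTest without a block, Benjamini-Hochberg over 16314 genes, adjusted p under 0.05). Standard errors came from the F statistic. Normalized counts were scaled to 23554403 reads, log2 CPM used a prior count of 2, and the common biological coefficient of variation was 0.0614. The 12 alternatives were other scalings (RLE, library size alone), DESeq2 1.42.0, other filters (none beyond a non-zero count, at least 10 counts in every sample), the replicate number as a block and leaving out each library. A floor of 3 counts covers counting error only. No set test was run. Members and lists were chosen with earlier results of these data known. Some named or marker genes are not reported here. The text names all members, their paralogs, CITED2, up to 4 genes per list with the smallest adjusted p, and the 2 genes most like DICER1 and AGO2.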

Additional observations from a re-analysis of the deposited data

How the results depend on the processing

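The number of members that changed was 2 in the main analysis and in each of the 6 alternatives that kept all libraries, and 0 to 2 when 1 library was left out. Only the fit without si-Control replicate 1 kept both XPO5 and TNRC6A, and the other 5 left 0, with fewer samples in the fit. The 8 other members passed in 0 of 12 alternatives. AGO2 changed sign without si-Control replicate 1 (-0.038) and without si-CITED2 replicate 1 (-0.045), in a range of -0.045 to 0.086 over the fits that left out 1 library. The count over all genes was 2846 and ran from 2016 to 2847 when 1 library was left out, and that over the pathway lists was 23 and ran from 13 to 28. By list, leaving out 1 library gave 2 to 4 Microprocessor cofactors, 4 to 10 loading genes, 0 to 4 deadenylation and decapping genes, 1 to 3 sensors, 0 tailing genes and 4 host transcripts. The CITED2 log2 fold change was 0.22 (adjusted p = 0.05184, edgeR) with library size alone, and 0.17 to 0.29 when 1 library was left out. Replicate numbers did not pair the libraries (correlations of same-numbered deviations -0.038, 0.0336 and -0.0109, and 1 of 3 si-Control libraries correlated best with its own number). With replicate as a block, 2 members were called, as in the main analysis, while the count over all genes went from 2846 to 2559 and that over the pathway lists from 23 to 17. Without TMM the median over all genes moved to -0.02.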

Other observations

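Ratios between functional partners were taken within each library, a choice made after the values were seen. TNRC6A over TNRC6B was 1.02, 1.12 and 1.17 under si-Control against 0.806, 0.95 and 0.932 under si-CITED2, without overlap (exact permutation test, two-sided, p = 0.1, the smallest possible, and 0.4 after Benjamini-Hochberg adjustment over 4 ratios). AGO1 over AGO2 was 0.928, 0.845 and 0.739 under si-Control against 0.873, 0.963 and 0.874 under si-CITED2 (exact p = 0.4, adjusted 0.8). DROSHA over DGCR8 was 4.86, 5.02 and 5.19 under si-Control against 5.5, 4.77 and 5.19 under si-CITED2 (exact p = 0.6, adjusted 0.8). TARBP2 over PRKRA was 1.05, 0.919 and 1.01 under si-Control against 1.08, 0.863 and 1.03 under si-CITED2 (exact p = 1, adjusted 1). None of the 4 ratios passed, and the design of 3 against 3 could not have reached the threshold.

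The epithelial markers of these cells did not move in 1 direction. KRT8 and KRT18, partner keratins of simple epithelia, rose by edgeR's test (log2 fold change 0.24, adjusted p = 0.002597, and 0.18, adjusted p = 0.02667). CDH1, the epithelial cadherin, fell (log2 fold change -0.52, adjusted p = 1.673e-05, edgeR), as did EPCAM (-0.33, adjusted p = 0.001101, edgeR). KRT19 did not pass (0.08, adjusted p = 0.3967, edgeR). KRT8, CDH1 and EPCAM passed in all 12 alternatives and KRT18 in 9, failing without si-Control replicate 2 or 3 and without si-CITED2 replicate 1. The study reports that CITED2 decreased epithelial markers, and it measured E-CAD (CDH1) mRNA by RT-qPCR in PC3 or DU145 cells. By that report a knockdown would raise CDH1, whereas CDH1 was lower in the libraries labelled si-CITED2, where CITED2 mRNA was higher.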
